A study of Mus musculus with 30 samples.

Results

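The crystallins and lens fibre genes were followed in neural retina of Abca4-/-Rdh8-/- mice, which lack a photoreceptor transporter and a retinol dehydrogenase that clear retinaldehyde. The set holds 31 genes, 16 crystallins and 15 other genes of lens cells, taken by gene name, of 42439 gene identifiers in the count tables, and 31 were found. Where a name had several identifiers (Lim2, with 3) the one with most counts was used, which held 98.9% of its counts. All mice carried both deletions on C57BL/6J, were male and female, were 4 to 6 weeks old and were kept under cyclic light of at most 10 lux, so no library comes from a mouse with either gene intact. The single-drug experiment had 6 groups: 2-bromo-α-ergocryptine methanesulfonate (BRM, bromocriptine), metoprolol tartrate (MTP), tamsulosin (TAM) or doxazosin (DOX) before bright light, light with the solvent DMSO, and DMSO with no light. The mixture experiment had 4 groups: BRM with MTP and TAM (BMT) before light, MTP with DOX and BRM (MDB) before light, light with DMSO, and DMSO with no light. Injections were intraperitoneal and given 30 min before 30 min of white light at 10000 lux, and retinas were taken 1 day later. Each group had 3 libraries of poly(A) RNA, 30 in all. Nothing in the labels says whether a library is 1 animal or a pool, or whether replicates come from separate animals, so p-values measure only the spread between these libraries.

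The lens is a closed ball of cells in which an anterior epithelium feeds elongating fibre cells, and fibres fill with crystallins before they lose their nuclei. Alpha crystallins are small heat shock proteins that hold other proteins in solution, and beta and gamma crystallins are a shared family of compact structural proteins that set the refractive index. Some crystallins, above all Cryab, are also made outside the lens, in glia, muscle and pigment epithelium. In bulk RNA, fewer cells of a type and less RNA per cell cannot be told apart.

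Library totals were 12.0 to 22.2 M expected counts in the single-drug experiment and 18.5 to 25.8 M in the mixture experiment. The 16 crystallins took 0.0167% of a library's counts at the lowest, in BMT replicate 3, a median of 1.47%, and 5.74% at the highest, in BRM replicate 3. Rod markers were high in every library, with a summed level of 23482 to 78696 CPM (counts scaled per 1000000) in the single-drug and 37021 to 82898 CPM in the mixture experiment.

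Lens fibre RNA varied widely between libraries of one group. Mip, the water channel aquaporin-0 and the main membrane protein of lens fibres, was taken as the measure of lens fibre RNA. In which tissue this RNA was made was not tested. CPM values were scaled with the TMM method within each experiment, and per-library values are in the order of replicates 1, 2 and 3. Mip had 750.3, 569 and 1499 CPM in BRM, 2.21, 897 and 6.19 in MTP, 926, 16 and 23.6 in TAM and 11.5, 1331 and 7.62 in DOX retinas of the single-drug experiment. For Mip, light-exposed retinas there had 426, 376 and 315 CPM and unexposed retinas 628, 12.7 and 13.1 CPM. Mip in the mixture experiment had 10.7, 641 and 0.499 CPM in BMT, 1030.1, 664 and 753 in MDB, 5.30, 8.32 and 294 in light-exposed and 5.19, 1257 and 5.05 in unexposed retinas. The libraries fell into 2 sets with a gap between them: 16 had at least 293.7 CPM of Mip, 14 had at most 23.6 CPM, and none lay between. All 3 libraries of the BRM, single-drug light and MDB groups were above the gap, and every other group had 1 library above it and 2 below. Crystallins took 1.44 to 5.74% of counts in the 16 libraries above the gap and 0.0167 to 0.452% in the 14 below it. Mip spanned a 3010-fold range over the 30 libraries, and the labels name no dissection batch.

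**Figure D1:**
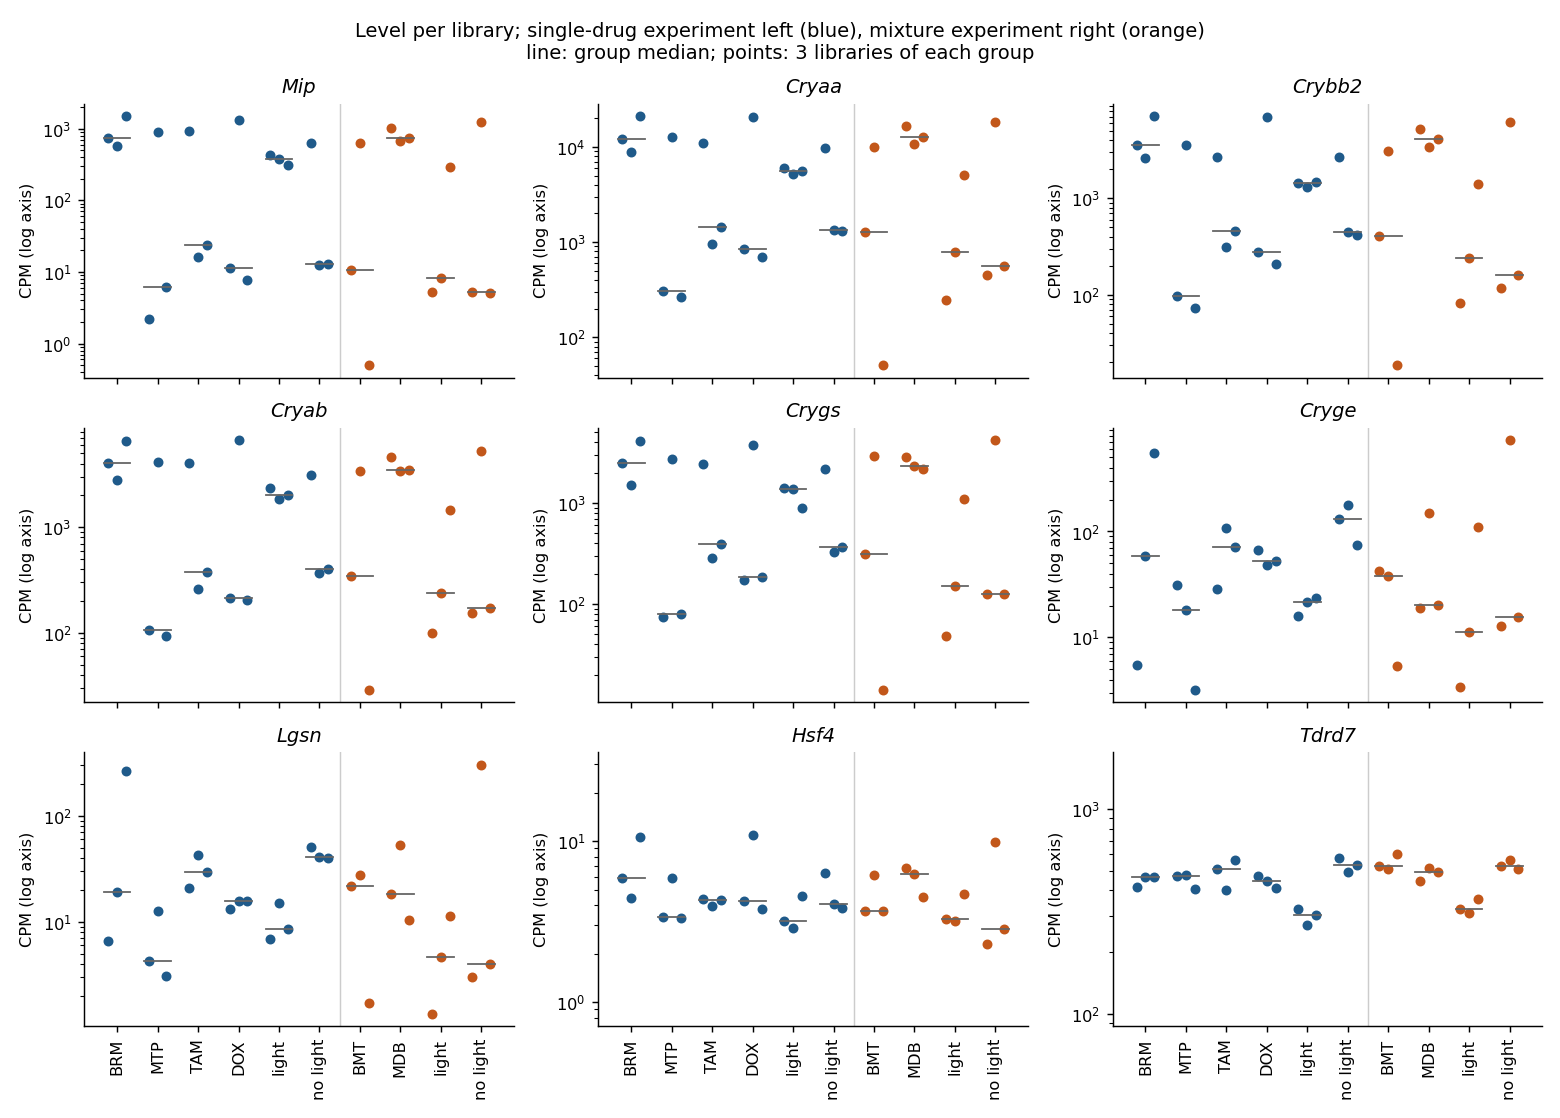
Level of Mip, Cryaa, Crybb2, Cryab, Crygs, Cryge, Lgsn, Hsf4 and Tdrd7 (CPM, log axis) in every library, 1 point per library with a line at the group median, grouped by treatment within the single-drug and mixture experiments. Mip spans 0.499 to 1499 CPM and splits most groups of 3 libraries, while Tdrd7 stays between 270.9 and 604 CPM and is lowest in both light groups.

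To ask which genes follow lens fibre RNA, each gene was fitted on log2 CPM of Mip with a term for each treatment group (edgeR quasi-likelihood test, Benjamini-Hochberg adjustment over all genes), so that the slope is read within groups. A slope of 1 means a level proportional to Mip and a slope of 0 a level unrelated to it. In the single-drug experiment 23 of 30 members had a positive slope at an adjusted p under 0.05 (call background 5.23% of genes in that direction), and in the mixture experiment 27 of 30 did (background 3.80%), Mip itself being left out. Among crystallins, 13 of 16 were called in the single-drug and 15 of 16 in the mixture experiment, and no member had a called negative slope. The median slope over the 30 members was 0.58 in the single-drug and 0.62 in the mixture experiment, against -0.00 in each for all genes tested. Outside the crystallins, Lgsn, Dnase2b, Birc7 and Tdrd7 were not called in the single-drug experiment, and Birc7 and Tdrd7 were not called in the mixture experiment. A difference in slope between experiments was called for 0 of 30 members by edgeR, DESeq2 and limma voom, and 13 had an unadjusted p under 0.05 in edgeR, against 4.05% of all genes. That difference was tested after the slopes had been seen.

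**Figure D2:**
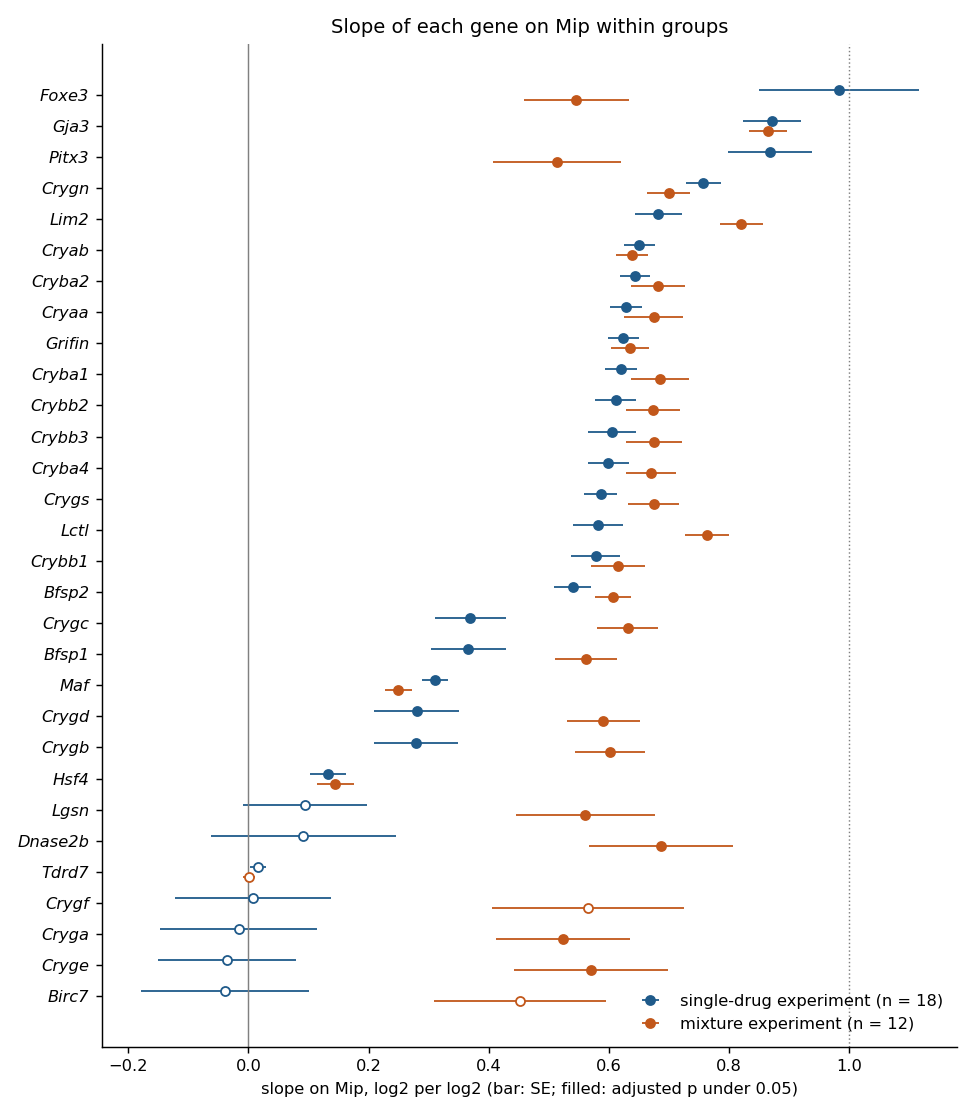
Slope of each member on log2 CPM of Mip (log2 per log2, point with SE bar; filled where the adjusted p is under 0.05) in the single-drug experiment (18 libraries) and the mixture experiment (12 libraries). Most crystallins sit between 0.58 and 0.76, whereas Cryga, Cryge, Crygf, Lgsn, Dnase2b and Birc7 lie near 0 in the single-drug experiment and between 0.45 and 0.69 in the mixture experiment.

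Promoters are shown because most crystallins moved together with Mip. They come from RefSeq (GRCm38.p6), 250 bases before to 50 after the gene start, and matched 28 of the 31 members by symbol; Cryab, Hsf4 and Maf had no entry. The letters TGCTGA, the core half-site recognised by large Maf factors, were found on either strand in 16 of 28 member promoters and in 10 of 15 crystallin promoters, and in 19.5% of 32851 promoters of all genes. Here and below, a member counts once for a match in any of its promoter entries. Shares of all promoters are over single entries, so the units differ. The longer TGCTGAC, which contains TGCTGA, was present in 6 member promoters (Cryaa, Cryba1, Cryba4, Crybb1, Cryga and Lctl) and in 4.67% of all promoters. The windows below, 5′ to 3′ on the gene's strand, hold 120 bases each, with TGCTGAC in capitals: Cryaa at chr17:31677811-31677930 on the plus strand, Cryba1 at chr11:77725294-77725413 on the minus strand, Crybb1 at chr5:112255700-112255819 on the plus strand and Lctl at chr9:64117027-64117146 on the plus strand. Cryge at chr1:65051164-65051283 on the minus strand and Crygf at chr1:65926402-65926521 on the plus strand hold no such match in their windows and carry no capitals; they show how alike these neighbours are, with 99 of 106 aligned bases identical.
Cryaa: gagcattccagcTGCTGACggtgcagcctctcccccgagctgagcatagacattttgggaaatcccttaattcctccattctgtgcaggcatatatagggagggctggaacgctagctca
Cryba1: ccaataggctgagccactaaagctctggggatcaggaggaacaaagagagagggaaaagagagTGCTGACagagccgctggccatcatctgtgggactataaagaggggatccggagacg
Crybb1: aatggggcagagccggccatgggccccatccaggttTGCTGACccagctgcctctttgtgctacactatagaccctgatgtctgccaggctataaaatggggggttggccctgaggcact
Lctl: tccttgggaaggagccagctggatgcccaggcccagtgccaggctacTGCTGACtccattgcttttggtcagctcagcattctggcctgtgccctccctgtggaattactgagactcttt
Cryge: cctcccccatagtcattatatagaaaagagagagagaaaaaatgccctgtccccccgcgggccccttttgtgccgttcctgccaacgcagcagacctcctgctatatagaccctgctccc
Crygf: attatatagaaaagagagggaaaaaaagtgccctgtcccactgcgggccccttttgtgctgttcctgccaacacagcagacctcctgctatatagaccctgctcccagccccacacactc

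In Cryaa the capitals begin 108 bases before the annotated start, in Cryba1 57, in Crybb1 84 and in Lctl 73. The 4 genes printed with the match had slopes on Mip of 0.58 to 0.63 in the single-drug experiment, and the other two with it, Cryba4 and Cryga, had 0.60 and -0.02, the last not called. Crygs, Grifin and Lim2, with 0.59 to 0.68, hold no TGCTGAC in theirs. Palindromes resembling part of a heat shock element were rarer: TTCNNGAA was in Cryba1 and Tdrd7 (8.52% of all promoters) and GAANNTTC in Dnase2b (7.86%). TATAAA was in 8 of 28 member promoters (13.6% of all) and ATTGTT, a Sox-type core, in 3 (10.7%). A match describes these letters in the window and is no evidence of binding.

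Cryaa, the lens alpha crystallin, was the most abundant member, with a median of 5147 FPKM (fragments per kilobase of transcript scaled to library size, used to compare genes) over 30 libraries. Cryaa had 12163, 8724 and 21017 CPM in BRM, 304, 12580.0 and 264 in MTP, 11065, 957 and 1428 in TAM and 852, 20559.6 and 693 in DOX retinas of the single-drug experiment. For Cryaa, light-exposed retinas there had 5976, 5244 and 5596 CPM and unexposed retinas 9742, 1334 and 1322 CPM. Cryaa in the mixture experiment had 1273, 10028 and 51.0 CPM in BMT, 16382, 10698 and 12630.1 in MDB, 246, 784 and 5024 in light-exposed and 453, 18181 and 563 in unexposed retinas. Its libraries split as those of Mip did, with no overlap between the libraries above and below the gap. Its slope on Mip was 0.63 ± 0.03 (SE) in the single-drug experiment (edgeR adjusted p = 6.15e-10) and 0.67 ± 0.05 in the mixture experiment (adjusted p = 9.37e-06). Since the slope is below 1, the ratio of Cryaa to Mip (CPM over CPM) was 12.0 to 17.8 in the libraries above the gap and 42.6 to 137 in those below it: libraries low in Mip kept more Cryaa per Mip.

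Cryab, the alpha crystallin that other tissues also use as a stress chaperone, had a median of 1674 FPKM. Cryab had 4022, 2789 and 6521 CPM in BRM, 106, 4135 and 93.4 in MTP, 4058, 261 and 377 in TAM and 214, 6618 and 205 in DOX retinas of the single-drug experiment. For Cryab, light-exposed retinas there had 2371, 1862 and 2023 CPM and unexposed retinas 3110.4, 365 and 403 CPM. Cryab in the mixture experiment had 343, 3415 and 29.0 CPM in BMT, 4634, 3376 and 3440.1 in MDB, 100.2, 236 and 1464 in light-exposed and 153, 5294 and 174 in unexposed retinas. Cryab had nearly the slopes of Cryaa, with values on Mip of 0.65 ± 0.03 and 0.64 ± 0.03. The ratio of Cryab to Cryaa (CPM over CPM) was 0.251 to 0.408 in 29 libraries and 0.570 in BMT replicate 3, the library with the least lens RNA. The level of Cryab in that library, 29.0 CPM against 51.0 CPM of Cryaa, is the highest that a Cryab signal common to all 30 retinas could be.

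The 6 beta crystallins, structural proteins that associate into oligomers, moved as a block with Cryaa. By median FPKM the order was Cryba1 (3038), Crybb2 (2020.1), Cryba2 (824), Cryba4 (489), Crybb3 (486) and Crybb1 (240.1), and each varied over at least 335-fold between libraries. Cryba4 and Crybb3 had nearly the same median, well within their spread. Cryba1, which gives a longer and a shorter protein from one mRNA, ranged over 21.8 to 7317 CPM, with slopes on Mip of 0.62 ± 0.03 (single-drug) and 0.68 ± 0.05 (mixture). Crybb2, the most abundant basic beta crystallin of the adult lens, ranged over 18.7 to 7089.8 CPM, with slopes of 0.61 ± 0.03 and 0.67 ± 0.05. Crybb1, a basic member with a long N-terminal arm, had the lowest slopes of the group, 0.58 ± 0.04 and 0.62 ± 0.05, and all 6 were called in both experiments. Relative to Cryaa (CPM over CPM, 30 libraries) the beta crystallins kept within a far narrower range than their own levels did. Cryba2 over Cryaa was 0.0866 to 0.118 and Crybb2 over Cryaa 0.242 to 0.366, the narrowest ranges, and Cryba4 was at 0.0536 to 0.101. The ratio of Cryba1 was 0.312 to 0.657, of Crybb1 0.0287 to 0.0615 and of Crybb3 0.0374 to 0.0798, each spanning 2.11- to 2.14-fold, against at least 335-fold for the levels. Crybb2 over Cryaa, like Cryab over Cryaa, was highest in BMT replicate 3, and Cryba2 over Cryaa was not.

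The gamma crystallins Cryga to Crygf, made mainly in the early fibres that form the lens core and lying in a cluster on mouse chromosome 1, did not keep step with the rest. Cryge and Crygf transcripts are 96.2% identical over 625 aligned bases, with a longest identical run of 134 bases, and Crygb and Crygc share a run of 221 bases, so the split of reads among these 6 genes is uncertain and their sum is given too. Cryge had 5.5, 59.1 and 546 CPM in BRM, 31.3, 18 and 3.22 in MTP, 28.9, 107 and 71.7 in TAM and 66.2, 48.5 and 53.1 in DOX retinas of the single-drug experiment. For Cryge, light-exposed retinas there had 16, 21.6 and 23.7 CPM and unexposed retinas 131, 178 and 74.0 CPM. Cryge in the mixture experiment had 42.8, 37.7 and 5.37 CPM in BMT, 19.0, 151 and 20.2 in MDB, 3.37, 11.3 and 110.3 in light-exposed and 12.8, 723 and 15.4 in unexposed retinas. Cryge over Cryaa (CPM over CPM) spanned 0.000452 (BRM replicate 1) to 0.134 (unexposed single-drug replicate 2), a 295-fold range, and the ranges above and below the Mip gap overlapped, at 0.000452 to 0.0398 and 0.0122 to 0.134. Single libraries show the separation: BRM replicate 1 had 5.5 CPM of Cryge beside 750.3 CPM of Mip, and BRM replicate 3 had 546 CPM beside 1499 CPM. Cryga (0.0487 to 92.5 CPM) and Crygf (0.146 to 220.2 CPM) varied more than any other crystallin; both were lowest in BRM replicate 1 and highest in unexposed mixture replicate 2.

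On Mip, Cryga and Cryge were called in the mixture experiment alone, Crygb, Crygc and Crygd in both and Crygf in neither. The difference in slope between experiments was called for none of the 6. Its edgeR p was 0.00453 to 0.0211 unadjusted and 0.9997 adjusted for each. In the single-drug experiment Cryga (-0.02 ± 0.13), Cryge (-0.04 ± 0.12) and Crygf (0.01 ± 0.13) were not called, and Crygb (0.28 ± 0.07), Crygc (0.37 ± 0.06) and Crygd (0.28 ± 0.07) were, at less than the slope of Cryaa. Crygb lost its call without unexposed replicate 1 or 3, MTP replicate 2 or 3, or any DOX library, with slopes of 0.22 to 0.29, and Crygd without unexposed replicate 1, MTP replicate 2 or 3, or any DOX library, with 0.22 to 0.30. In the mixture experiment the slopes were 0.52 ± 0.11 for Cryga, 0.60 ± 0.06 for Crygb, 0.63 ± 0.05 for Crygc, 0.59 ± 0.06 for Crygd and 0.57 ± 0.13 for Cryge, all called, and 0.57 ± 0.16 for Crygf (edgeR adjusted p = 0.0875). Without any unexposed library or BMT replicate 3 the call was lost for Cryga (slopes of 0.48 to 0.58) and Cryge, and Cryge lost it without any light library too (0.41 to 0.58). The sum of the 6 ranged from 36.8 CPM in BMT replicate 3 to 7463 CPM in unexposed mixture replicate 2. Their share of all crystallin FPKM was 3.65% to 33.2%, against 24.2% to 44.7% for alpha and 32.1% to 46.4% for beta crystallins.

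**Figure D3:**
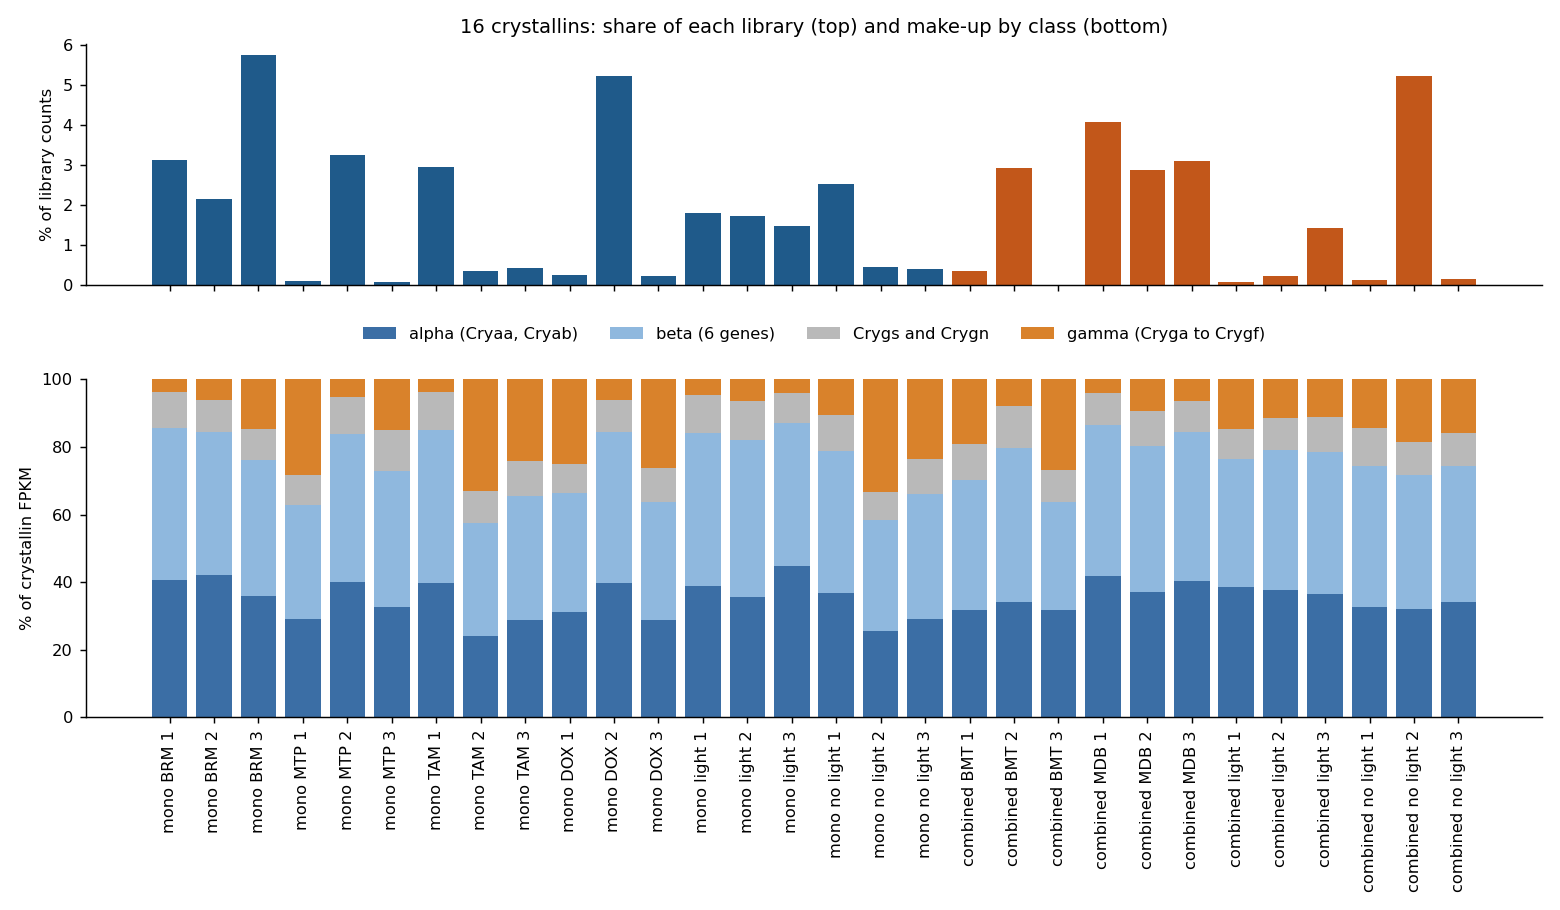
Share of a library's counts held by the 16 crystallins (percent, top) and share of summed crystallin FPKM held by alpha, beta, gamma A to F, and Crygs with Crygn (percent, bottom), 1 bar per library (mono, single-drug experiment; combined, mixture experiment). The gamma A to F share runs from 3.65% in BRM replicate 1 to 33.2% in unexposed single-drug replicate 2, a wider relative range than that of the other classes.

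Crygs, the gamma crystallin of postnatal cortical fibres, varied far less relative to Cryaa than in level. Crygs had 2491, 1516 and 4153 CPM in BRM, 74.1, 2712 and 79.6 in MTP, 2454, 285 and 394 in TAM and 174, 3753 and 185 in DOX retinas of the single-drug experiment. For Crygs, light-exposed retinas there had 1411, 1377 and 898 CPM and unexposed retinas 2165, 325 and 364 CPM. Crygs in the mixture experiment had 316, 2903 and 14.2 CPM in BMT, 2864, 2341 and 2146 in MDB, 48.4, 149 and 1093 in light-exposed and 124, 4162 and 126 in unexposed retinas. Its slopes on Mip were 0.59 ± 0.03 and 0.67 ± 0.04, and Crygs over Cryaa spanned 1.88-fold, between 0.161 and 0.302. In BMT replicate 3 it was at 14.2 CPM, a Crygs over Cryaa ratio of 0.278, inside the range of the other libraries. Its transcript is 62.2% to 65.8% identical to the other gamma transcripts with no identical run over 14 bases, so its reads are not shared with them to that extent. Crygn, an outlying gamma family member with features of both beta and gamma crystallins, was far less abundant (median 28.6 FPKM) and followed Mip more steeply, 0.76 ± 0.03 and 0.70 ± 0.04, with 0.111 to 80.3 CPM over the libraries.

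**Figure D4:**
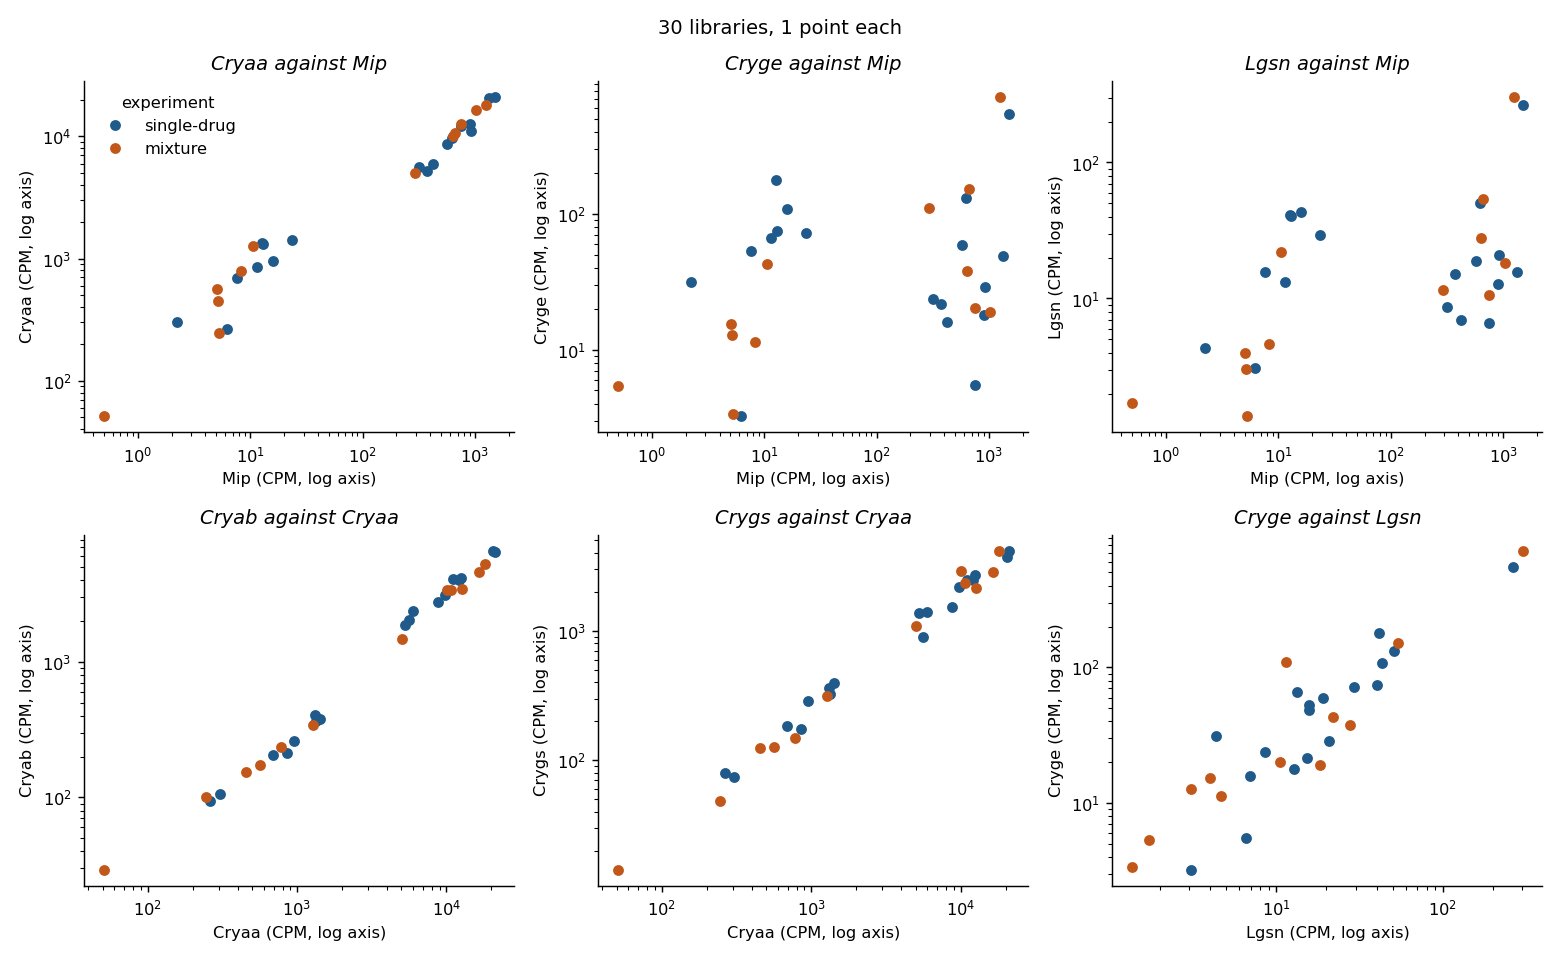
Levels in each of the 30 libraries (CPM, log axes, 1 point per library, coloured by experiment) for Cryaa, Cryge and Lgsn against Mip, Cryab and Crygs against Cryaa, and Cryge against Lgsn. Cryab and Crygs lie along narrow bands on Cryaa, whereas Cryge and Lgsn scatter against Mip, with libraries above 100 CPM of Cryge on both sides of the gap in Mip.

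Among fibre membrane and cytoskeleton genes, Lim2, Gja3 and Bfsp2 followed Mip in both experiments and Bfsp1 did so with a lower slope in the single-drug experiment. Lim2, a junctional protein of fibre membranes, ranged over 0.388 to 307 CPM, with slopes of 0.68 ± 0.04 and 0.82 ± 0.04. Gja3, the gap junction protein connexin 46, had the slope nearest to 1 among these genes, 0.87 ± 0.05 and 0.87 ± 0.03, reached 45.3 CPM and had 0 counts in 2 libraries. Of the beaded filament partners, Bfsp1 (filensin) had slopes of 0.37 ± 0.06 and 0.56 ± 0.05 and Bfsp2 (phakinin) 0.54 ± 0.03 and 0.61 ± 0.03. The difference between the 2 partners was not tested. Their medians were 18.8 FPKM for Bfsp1 and 25.9 FPKM for Bfsp2.

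The remaining fibre genes were mixed, and Lgsn showed the same separation from Mip as Cryge. Lgsn (lengsin) is a glutamine synthetase relative without that activity, made in fibres as they mature. Lgsn had 6.57, 19.0 and 263 CPM in BRM, 4.31, 12.8 and 3.07 in MTP, 20.7, 43.0 and 29.4 in TAM and 13.3, 15.7 and 15.7 in DOX retinas of the single-drug experiment. For Lgsn, light-exposed retinas there had 6.96, 15.2 and 8.6 CPM and unexposed retinas 50.7, 41.3 and 40.1 CPM. Lgsn in the mixture experiment had 21.8, 27.8 and 1.72 CPM in BMT, 18.2, 53.6 and 10.5 in MDB, 1.36, 4.66 and 11.5 in light-exposed and 3.05, 303 and 4.00 in unexposed retinas. Unexposed mixture replicate 2 and BRM replicate 3, at 303 and 263 CPM, stood above the other 28 libraries, which reached at most 53.6 CPM. Its slope on Mip was 0.09 ± 0.10 in the single-drug experiment, not called, and 0.56 ± 0.12 in the mixture experiment (edgeR adjusted p = 0.0187), a call lost without any unexposed library or BMT replicate 3 (0.31 to 0.55). Dnase2b, the acid nuclease that degrades fibre nuclear DNA, was scarce, at 0 to 8.0 CPM with 3 libraries at 0 counts, and Birc7, an inhibitor of apoptosis protein, was at 0 to 8.99 CPM with 1 library at 0. Dnase2b slopes on Mip were 0.09 ± 0.15 (not called) and 0.69 ± 0.12 (called, but not without unexposed replicate 2, at 0.46), and Birc7 slopes -0.04 ± 0.14 and 0.45 ± 0.14 (neither called). Grifin, a galectin relative of the fibre cytoplasm, and Lctl, a klotho family protein, followed Mip as the beta crystallins did, with slopes of 0.62 ± 0.03 and 0.63 ± 0.03 for Grifin and 0.58 ± 0.04 and 0.76 ± 0.04 for Lctl.

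After Lgsn and the gamma crystallins had been seen to vary apart from Mip, each gene was fitted on log2 CPM of Lgsn with Mip and treatment group in the same edgeR fit, a choice that rests on these data. In the single-drug experiment 4 of 29 members were called, all with positive slopes (background 0.0308%): Dnase2b at 1.49 ± 0.15 (adjusted p = 0.000698), Birc7 at 1.14 ± 0.10 (0.000323), Cryge at 1.08 ± 0.16 (0.0410) and Crygb at 0.61 ± 0.09 (0.0292). These 4 were among 5 genes called of 16247, and the fifth, named after its value was seen, was the small heat shock protein gene Hspb1, with 0.47 ± 0.07 (edgeR adjusted p = 0.0254). Crygf (1.17 ± 0.20, adjusted p = 0.0597), Crygd (0.59 ± 0.09, 0.0506) and Bfsp1 (0.51 ± 0.08, 0.0506) were just above the threshold in edgeR. Without BRM replicate 3, no member was called, the slopes then being 1.18 for Dnase2b and 1.33 for Birc7. Crygb lost its call without any of 9 libraries in turn (0.60 to 0.75) and Cryge without any of 12 (0.88 to 1.25), a loss that fell on every treatment group for Cryge. In the mixture experiment 0 of 16005 genes were called by edgeR and 0 members by limma voom, whereas DESeq2 called 2 members; 12 of 29 members had an unadjusted p under 0.05 in edgeR, all with positive slopes (background 2.56% of genes). The highest there were Crygf at 1.25 ± 0.22, Birc7 at 1.24 ± 0.23, Cryge at 0.99 ± 0.20 and Dnase2b at 0.77 ± 0.29, and Hspb1 had 0.55 ± 0.08 (adjusted p = 0.55). By contrast the slopes of Cryaa on Lgsn beside Mip were 0.07 ± 0.07 and 0.19 ± 0.13, of Cryab 0.03 ± 0.07 and 0.12 ± 0.07, and of Crygs 0.10 ± 0.07 and 0.16 ± 0.11.

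**Figure D5:**
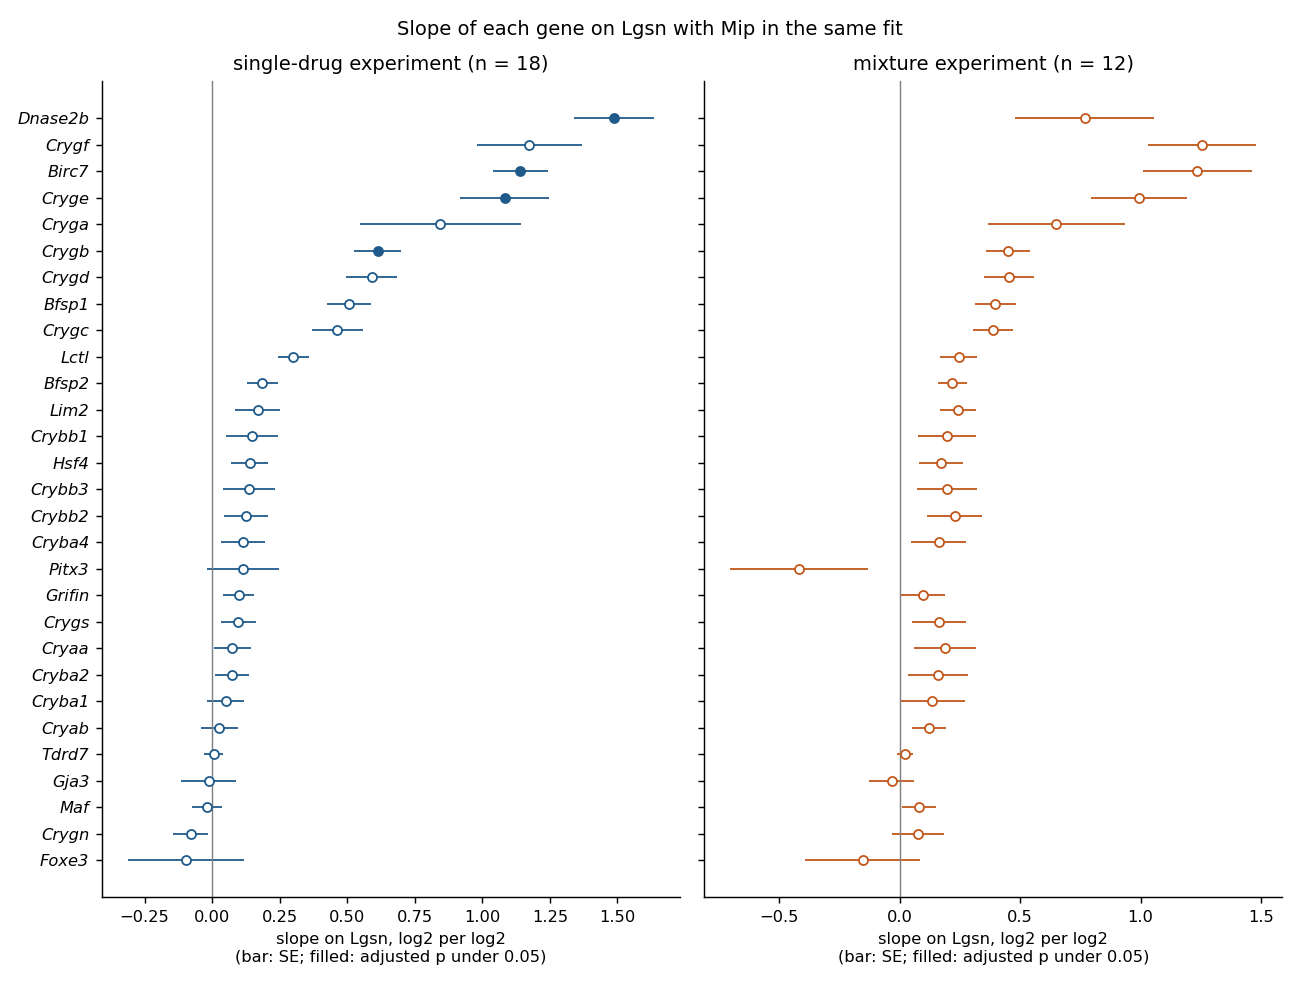
Slope of each member on log2 CPM of Lgsn with log2 CPM of Mip and treatment group in the same fit (log2 per log2, point with SE bar; filled where the adjusted p is under 0.05), in the single-drug experiment (18 libraries) and the mixture experiment (12 libraries). Dnase2b, Crygf, Birc7, Cryge and Cryga lead in both panels, at 0.85 to 1.49 in the single-drug and 0.65 to 1.25 in the mixture experiment, and the alpha and beta crystallins lie at or below 0.23.

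The regulators of lens development ranged from lens-bound to nearly independent of lens RNA. Foxe3, a forkhead factor of the lens epithelium, and Pitx3, a homeodomain factor needed for lens formation, were scarce, with 0 counts in 12 and 9 of 30 libraries and at most 5.36 and 4.82 CPM, and both were called on Mip in both experiments. At these levels their slopes rest on few counts, and their dependence on the prior count was not tested. In the mixture experiment the Foxe3 call was lost without unexposed replicate 2 (0.51), and the Pitx3 call without unexposed replicate 2 or 3 or BMT replicate 2 or 3 (0.45 to 0.67). Maf, the factor that drives crystallin genes in fibres, had 12.0 to 104 CPM and slopes of 0.31 ± 0.02 and 0.25 ± 0.02. Hsf4, a heat shock factor required for fibre maturation, had 2.29 to 11.0 CPM and slopes of 0.13 ± 0.03 and 0.14 ± 0.03; Maf and Hsf4 were called in both experiments. Hsf4 lost its call without DOX replicate 2 or 3 in the single-drug experiment (0.10 to 0.12) and without any unexposed library in the mixture experiment (0.08 to 0.14). Tdrd7, a Tudor domain protein of RNA granules whose loss causes cataract in mice, had 271 to 604 CPM, with slopes of 0.02 ± 0.01 and 0.00 ± 0.01, neither called.

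The lowest level of any library caps a part common to all retinas. That cap was 1.75% of the median for Cryab, 1.43% for Crygs, 0.993% for Cryaa, 30.9% for Maf, 53.3% for Hsf4 and 57.7% for Tdrd7. The level in CPM was also written as a constant part, the same in every retina, plus a part proportional to the summed CPM of 6 lens fibre genes, neither allowed below 0; this is a description with no test. The fitted constant part exceeded the lowest level seen in 17 of 31 members. Among them were Cryga to Crygf, Lgsn, Maf (14.9 against 12.0 CPM), Hsf4 (3.12 against 2.29 CPM) and Tdrd7 (395 against 271 CPM, the lowest being a light-exposed library). The fit had no term for treatment group, and spread between libraries alone can put a fitted constant above the lowest library. For these 17 the constant part is not read as a level common to all retinas, and whether the description holds was not tested. Of the other 14, Cryab had 22.7 CPM, which is 1.37% of its median, Cryaa 9.48 CPM (0.185%), Crybb2 8.65 CPM (0.634%) and Cryba1 5.71 CPM (0.282%), and Crygn, Crybb3, Lim2, Gja3, Mip and Foxe3 had 0. The value for Cryab depended on the choices made: it was 9.34 CPM with 4 other lens genes as the measure, 52.6 CPM with Mip alone, 47.8 CPM with flatter weights, and 21.0 to 53.8 CPM when 1 library was left out, the highest without BMT replicate 3, where Cryab itself reached 29.0 CPM. With Cryaa in place of the lens sum, a choice made after seeing the data, it was 12.8 CPM over all libraries, 15.1 CPM in the mixture experiment and 0 in the single-drug experiment. The constant part of Crygs was 7.84 CPM, 0.788% of its median, and ran from 0.0443 to 39.9 CPM over the alternatives tried, against 14.2 CPM in its poorest library.

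With bright light and no drug, Tdrd7 passed the test and no crystallin did in the fit over all groups. On the compared single-drug libraries alone, Cryga, Crygd, Cryge and Crygf were called lower with light, and DESeq2 called Cryge lower. The share of all genes called in those fits is not given, so these calls are not read as particular to gamma crystallins. Tdrd7 fell in both experiments. Tdrd7 had 414, 466 and 464 CPM in BRM, 468, 474 and 405 in MTP, 507, 399.7 and 564 in TAM and 471, 445 and 409.9 in DOX retinas of the single-drug experiment. For Tdrd7, light-exposed retinas there had 325, 271 and 303 CPM and unexposed retinas 577, 491 and 533 CPM. Tdrd7 in the mixture experiment had 527, 509.6 and 604 CPM in BMT, 445, 513 and 490.4 in MDB, 323, 312 and 363 in light-exposed and 526, 565 and 507 in unexposed retinas. Light and unexposed retinas did not overlap in either experiment. Rod markers moved the same way: their summed level was 23482 to 33196 CPM in light and 73704 to 78696 CPM in unexposed retinas of the single-drug experiment, and 37021 to 45311 CPM in light and 66110 to 78129 CPM in unexposed retinas of the mixture experiment; their part in the Tdrd7 change was not tested. The log2 change was -0.83 ± 0.12 (SE) in the single-drug experiment (edgeR adjusted p = 0.000268) and -0.68 ± 0.09 in the mixture experiment (adjusted p = 0.000539). It was the only member called of 31 in each, where 24.0% and 13.2% of all genes were called. The median log2 change of the 31 members was -0.11 in the single-drug experiment (all genes 0.02) and -1.89 in the mixture experiment (all genes 0.01). In the single-drug experiment 8 members had groups without overlap (background 40.1%), all lower in light (20.1% of genes in that direction). They were Tdrd7, Cryga, Crygd, Cryge, Crygf, Lgsn, Dnase2b and Birc7. Of these, Cryge had a log2 change of -2.64 ± 1.05 (adjusted p = 0.0826) and Lgsn -2.10 ± 0.91 (adjusted p = 0.111). In the mixture experiment Tdrd7 alone had groups without overlap (background 30.3%), and Cryaa had a log2 change of -1.66 ± 1.66 (adjusted p = 0.572), turning to 1.98 without unexposed replicate 2.

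The level of Mip differed between the groups compared: all 3 light libraries of the single-drug experiment were above the Mip gap, against 1 of 3 unexposed. The share of all genes called with Mip as a covariate is not given, so the counts that follow are not read as particular to these members. With Mip as a covariate, 14 of 30 members were called lower with light in the single-drug experiment, Cryaa among them at -0.77 (edgeR adjusted p = 0.0407), Crybb2 at -1.04 and Crygs at -0.83, and 1 of 30, Tdrd7, in the mixture experiment. In that fit no member's light effect differed between experiments at an adjusted p under 0.05, and none at an unadjusted p under 0.05; without the covariate edgeR, DESeq2 and limma voom also called none, and none was under 0.05 unadjusted in edgeR (background 15.1%). The part that lens RNA content has in these values was not tested further.

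Each of the 6 drug treatments before light left Tdrd7 higher than light alone, and no crystallin passed the test with any of them in the fit over all groups of an experiment. That holds less firmly for BRM: fitted on BRM and light libraries alone, 9 of 16 crystallins were called higher, Cryaa among them, and 16 of 30 members. The share of all genes called in that fit is not given, so these counts are not read as particular to crystallins or members. DESeq2 called Cryge and Crygf higher with BRM, and the fit on the compared libraries alone called Cryga with TAM and Cryge with DOX. The 4 single drugs share 1 set of light libraries, and the 2 mixtures another. Tdrd7 in the treated groups stood above every light library of the same experiment. Rod markers moved alongside, 7 or 8 of 8 being called higher than light in each of the 6 comparisons (median log2 difference 0.69 to 1.09), as were 4 or 5 of 6 cone markers; their part in the Tdrd7 difference was not tested. Its log2 difference from light was 0.56 ± 0.12 with BRM (edgeR adjusted p = 0.00739), 0.57 ± 0.12 with MTP (0.00783), 0.71 ± 0.12 with TAM (0.00211), 0.53 ± 0.12 with DOX (0.0129), 0.71 ± 0.09 with BMT (0.000439) and 0.54 ± 0.09 with MDB (0.00298). The DOX call was lost without light replicate 2 (0.48, adjusted p = 0.0607) or DOX replicate 1 (0.48, adjusted p = 0.0734). Members called were 3 of 31 with BRM (all genes 14.4%), 1 with MTP (10.3%), 1 with TAM (10.6%), 1 with DOX (11.9%), 1 with BMT (17.7%) and 2 with MDB (9.63%). Tdrd7 has several transcripts, and in the mixture experiment Tdrd7-002 had 114, 106 and 128 FPKM with BMT, 84.4, 101 and 90.5 with MDB, 87.0, 77.6 and 97.2 with light and 121, 94.9 and 105 with no light. Tdrd7-001 had 33.3, 41.3 and 27.7 FPKM with BMT, 49.2, 47.1 and 52.9 with MDB, 17.6, 22.9 and 15.2 with light and 28.5, 65.6 and 40.8 with no light, the 3 light libraries being the lowest of that experiment. In the single-drug experiment Tdrd7-001 had 30.1, 25.0 and 22.1 FPKM with light and 43.8, 29.8 and 31.6 with no light, which overlapped, as did light with MTP and DOX. Tdrd7-002 had 75.1, 64.3 and 75.2 FPKM with light and 117, 109 and 115 with no light, without overlap. It overlapped light with BRM (86.2, 93.4 and 63.6 FPKM) and DOX (91.0, 63.7 and 91.7 FPKM), and did not with MTP or TAM. Tdrd7-001 was the 1 member transcript among 521 in the authors' deposited table for the mixture experiment, at log2 differences over light of 1.05 (BMT), 1.55 (MDB) and 1.35 (no light). The adjusted p of 0.0176 given there is that of the authors' F test over all groups of that experiment, and belongs to no single difference. The authors' deposited table for the single-drug experiment held 0 member transcripts among 622.

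The other calls in the BRM group rest on 1 library. Lgsn was 6.57, 19.0 and 263 CPM with BRM and 6.96, 15.2 and 8.6 CPM with light, a log2 difference of 3.21 ± 0.94 (edgeR adjusted p = 0.0340). Birc7 was 0.146, 0.50 and 8.13 CPM with BRM and 0.0843, 0.466 and 0.289 CPM with light, a difference of 3.36 ± 1.07 (adjusted p = 0.0468). BRM replicate 3 was far above both other BRM libraries, and without it the differences were 0.32 for Lgsn and 0.20 for Birc7; Lgsn also lost its call without any of the 3 light libraries, and Birc7 without 14 of 18 libraries in turn, that one among them. All 16 crystallins had positive log2 differences with BRM (median 1.63, all genes 0.00) but none was called, Cryge being nearest at 3.30 ± 1.08 (adjusted p = 0.0525). In all, 19 members had BRM and light groups without overlap (background 39.4%), and 23 had MDB and light groups without overlap (background 33.2%); Mip was above the gap in all 3 libraries of both drug groups, in all 3 single-drug light and in 1 mixture light library. The counts without overlap were 1 with MTP (background 30.0%), 5 with TAM (27.8%), 3 with DOX (31.3%) and 1 with BMT (39.3%). Foxe3 with MDB was the remaining call, with 113, 37 and 111 counts against 0, 0 and 3 in light libraries. Pooled over libraries, the ratio of counts per total count was 88.5-fold (95% exact interval 30.0 to 432, counting error only, without the spread between libraries). The edgeR adjusted p was 0.0253, a call lost without any of 5 libraries (each light library, MDB replicate 1 or MDB replicate 3). The filter on low counts asks for a set level in 3 libraries. Foxe3 had at most 0.182 CPM in every library below the Mip gap and 3 counts in light replicate 3. It was thus tested in the mixture experiment only because its MDB libraries were high, and its call is not read further. Foxe3 followed Mip, and the part that lens RNA content has in its call was not tested.

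Of the lists of other cell types, lens epithelium and ciliary body and iris held most of the markers that followed Mip. Lens epithelium markers were called higher in 5 of 6 in both experiments, among them Cdh1 (0.60 ± 0.04 and 0.45 ± 0.04 on Mip). Those called include Foxe3 and Pitx3, which are members and were already counted above. Ciliary body and iris markers were called higher in 4 of 9 and 5 of 9, among them Msx1 (0.56 ± 0.07 and 0.57 ± 0.10) and Acta2 (0.41 ± 0.06 and 0.40 ± 0.03). Summed ciliary body and iris markers were 82.4 to 400.0 CPM in the single-drug and 91.2 to 278 CPM in the mixture experiment. Of 7 ganglion cell markers 1, Nefl, was called in the single-drug experiment with a negative slope of -0.04 (edgeR adjusted p = 0.0307), and none in the mixture experiment. Rod, cone, bipolar, amacrine, endothelial and microglial markers were called in neither experiment, pigment epithelium markers in 0 of 9 and 1 of 10, and Mueller glia markers in 1 of 6 (Vim) and 2 of 6 (Vim and Glul). None of 6 crystallin-named genes of other families and none of 9 heat shock factors and chaperones was called on Mip in either experiment. Hspb2, the chromosomal neighbour of Cryab, was called in both (0.61 ± 0.05 and 0.48 ± 0.06).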

How the data were processed

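Poly(A) RNA of neural retina was sequenced in 30 libraries, stranded and paired-end per the labels, in 10 groups of 3. The submitters' processing notes name Trimmomatic, Bowtie2, eXpress, TopHat2, edgeR and limma, and build GRCm38.p3; no version is stated. The authors deposited eXpress effective counts (expected counts) for 102906 transcripts, and FPKM values for the same transcripts. A deposited table of each experiment gives log2 differences and adjusted p-values from the authors' own comparisons.

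The expected counts were summed per gene identifier and rounded to whole numbers. The 2 experiments were fitted separately with edgeR 4.0.16 in R 4.3.3 (TMM, filterByExpr, quasi-likelihood test, two-sided, Benjamini-Hochberg over all genes tested), calling an adjusted p under 0.05; 31 of 31 members passed the filter in each experiment. A step fitted on all 30 libraries tested differences between experiments. Mip entered as log2 CPM with a prior count of 1. FPKM was summed per gene to compare levels between genes. Alternatives were RLE size factors, no filter, DESeq2 1.42.0, limma 3.58.1 (voom, or log2 of FPKM plus 1 or 0.1), a replicate block, fewer groups, other lens measures and leaving out each library. The procedure was tested on simulated data. Library totals were 12.0 to 25.8 M counts; intervals cover counting error only.

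Members are genes of the given list with that name; every member is named, with values in full for Mip, Cryaa, Cryab, Crygs, Cryge, Lgsn and Tdrd7, and other genes only from the cell type and pathway lists or as the closest to Mip. Members and lists were chosen with earlier results of these data known. The replicate numbers were checked for pairing through the correlation of deviations from group means (median r of -0.00 over 45 same-numbered pairs in the single-drug and -0.05 over 18 in the mixture experiment), with 15 and 3 of them over 0.1. Pairs with other numbers had a median r of 0.03 over 90 and 0.05 over 36, with 36 and 13 of them over 0.1. Same-numbered libraries were thus no more alike, and they were not treated as pairs. eXpress divides reads shared by near-identical transcripts, which bears on Cryga to Crygf. Protein sequences were not used here. One gene close to Mip is not reported here.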

Additional observations from a re-analysis of the deposited data

How the results depend on the processing

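The 23 single-drug and 27 mixture members called on Mip were 20 to 23 and 20 to 28 when 1 library was left out. Among slopes called in the main fit, none changed sign except that of Cryge in the mixture experiment, at -0.0086 with Lgsn as a second covariate. Slopes not called there were not checked for sign. Counts of called members that moved over 1.5 times were as follows, without the share of all genes called in each alternative. Single-drug light (1): DESeq2 2, Mip as covariate 14, only the groups compared 7, and 1 to 5 with a library left out (4 without BRM replicate 1, 5 without BRM replicate 3). BRM (3): DESeq2 5, only the groups compared 16, limma voom 1, log2 FPKM with either pseudocount 1, and 1 to 6 with a library left out (1 without any light library or BRM replicate 3, 6 without BRM replicate 1). DOX (1): Mip as covariate 2, only the groups compared 2, and 0 to 1 with a library left out (0 without light replicate 2 or DOX replicate 1). MDB (2): only the groups compared 5, and 1 to 3 with a library left out. Single-drug slope on Lgsn (4): no filter 7, DESeq2 9, limma voom 7, and 0 to 6 with a library left out (0 without BRM replicate 3). Mixture slope on Lgsn (0): DESeq2 2, and 0 to 2 with a library left out (2 without light replicate 3). With the replicate block, BRM called 1 member, the slope on Lgsn 2 (single-drug) and 1 (mixture), and the slope on Mip 21 in each experiment; the block also turned the mixture light differences to 0.14 for Cryaa, 0.23 for Cryab, 0.0487 for Crybb2 and 0.0607 for Crygs.

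Mip as covariate turned the single-drug light differences of Cryaa (-0.77), Cryab (-0.52), Crybb2 (-1.04) and Crygs (-0.83). Leaving out a library gave -0.17 to 1.70 for Crybb2 and -0.0546 to 1.85 for Crygs there, negative without unexposed replicate 2 or 3 (Crybb2 -0.16 and -0.17, Crygs -0.0546 and -0.0302). In the mixture light comparison it gave -3.64 to 1.98 for Cryaa, -3.48 to 1.87 for Cryab, -3.74 to 2.05 for Crybb2 and -3.90 to 1.77 for Crygs, positive without unexposed replicate 2. The constant part of Cryab (22.7 CPM) was 52.6 with Mip alone, 47.8 with flatter weights, 9.34 with Grifin, Lctl, Dnase2b and Birc7, 20.1 with unscaled totals, and 12.8 with Cryaa, alone or with Cryge; that of Crygs (7.84 CPM) was 0.0443, 6.77, 4.5 and 1.83 CPM in that order (Cryaa alone, then with Cryge), 24.0 with Mip alone and 39.9 with flatter weights. The cause was not tested. Depth limits Foxe3, Pitx3, Dnase2b and Birc7, which had 0 counts in some libraries.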

Other observations

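Genes outside the 31 that followed Mip most closely were chosen by the mean of their slopes in the 2 experiments. Srd5a2, a steroid reductase, had slopes on log2 CPM of Mip of 1.14 in the single-drug and 0.87 in the mixture experiment, Wnt7a 1.03 and 0.92, and Wnt7b 0.79 and 0.74, both secreted Wnt ligands. The basement membrane and matrix genes Nid1 (0.89 and 0.71) and Col6a3 (0.87 and 0.73), the transcription factor gene Gata3 (0.79 and 0.83) and the glucagon gene Gcg (0.89 and 1.01) were also among the 10 closest. Of 15867 genes tested in both experiments, 466 were called in both, and all 466 had positive slopes in both.

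Other lens genes followed Mip in 16 of 24 cases in the single-drug and 14 of 24 in the mixture experiment. Sox1, a fibre transcription factor, had slopes of 0.68 ± 0.04 and 0.61 ± 0.07, and Rbm24, an RNA-binding protein of fibres, 0.40 ± 0.03 and 0.31 ± 0.02. Celf1 and Caprin2, RNA regulators that the retina also expresses, had called slopes under 0.10 in both experiments. Aldh3a1, an abundant corneal enzyme, was the 1 cornea marker called in either experiment, at 0.47 ± 0.04 and 0.43 ± 0.03.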
